A study of Arabidopsis thaliana with 18 samples.

Results

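Suberin is a polyester of fatty acids, glycerol and phenolics that plants lay down against the inner face of selected cell walls, and transcription factors of the R2R3 MYB family switch on the genes that make it. *MYB107* and *MYB9* are known for this role in the Arabidopsis seed coat. *MYB41*, *MYB53*, *MYB92*, *MYB93* and *MYB39* are known for suberin of the root endodermis, *MYB36* for the Casparian strip of that cell layer, *MYB68* as a root factor and *MYB74* as a stress-responsive relative of *MYB41*. These 10 genes, of 37861 genes kept from the deposited tables, were taken by identifier and were described over all 6 groups of the series.

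RNA was sequenced from seed coat and endosperm dissected together from *Arabidopsis thaliana* seeds of the Col ecotype, with 3 libraries per group. The mutant *myb107-2*, a T-DNA insertion in *MYB107*, was sampled at 11 DAP (days after pollination, 22 °C) and 48 h after a move to cold at 11 DAP (*myb107-2* 11 DAP+Cold). WT was sampled at 11 DAP, at 6 h (WT 11 DAP+6h Cold) and 48 h (WT 11 DAP+Cold) after the same move, and at 13 DAP in plants kept at 22 °C. The labels give 13 °C for the cold, and the study's text also states another temperature. *myb107-2* is 1 insertion allele, present in every cell, and its libraries were not sampled at 6 h or at 13 DAP. Each sample pooled 4 siliques of several plants, and p-values measure the spread between these samples.

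Deposited totals were 43.1 to 84.0 M estimated counts per library (median 65.4 M). A count of 3, used as the limit of detection, was worth 0.0315 to 0.101 CPM (counts per 1000000 of the TMM-scaled library total). Ribosomal RNA units held 6.0% to 47.0% of the counts, with the highest share in replicate 1 of WT 13 DAP. Between 13 and 610 genes per library were listed at 0 while both other replicates had at least 50 counts. The 610 were in replicate 1 of WT 11 DAP+6h Cold, followed by 292 in replicate 3 of WT 11 DAP+Cold and 117 in replicate 1 of WT 13 DAP, so a single 0 can be a failed estimate. Of 7 seed coat markers, 6 reached a mean of 1 CPM, and their summed level, mostly *TT10* (group means of 940 to 1860 CPM), was 791 to 2620 CPM. Of 6 endosperm markers only *EPR1*, which made up nearly all of a sum of 6270 to 30600 CPM, and *ZOU* reached that level, while 2 of the 6 were at 0 in every library. Of 7 embryo markers *CUC1* alone reached it, the sum was 12.8 to 31.3 CPM, and 2 had no count.

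Sequences are shown first for the pair that the results turn on. They are the 250 bases before the annotated start of *MYB107* (chr3:661599-661848, plus strand) and of *MYB9* (chr5:5514467-5514716, plus strand), read from the RefSeq sequence of TAIR10.1. Capitals mark the longest run of letters that the 2 windows share.
MYB107: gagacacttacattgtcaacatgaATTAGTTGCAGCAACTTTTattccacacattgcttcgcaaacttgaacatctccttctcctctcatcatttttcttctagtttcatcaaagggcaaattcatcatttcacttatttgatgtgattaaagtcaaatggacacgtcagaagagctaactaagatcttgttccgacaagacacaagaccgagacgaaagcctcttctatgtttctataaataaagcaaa
MYB9: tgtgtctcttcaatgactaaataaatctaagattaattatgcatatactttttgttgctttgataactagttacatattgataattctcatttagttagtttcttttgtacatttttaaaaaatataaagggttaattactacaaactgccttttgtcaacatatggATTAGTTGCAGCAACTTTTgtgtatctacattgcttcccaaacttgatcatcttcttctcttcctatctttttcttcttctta

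The shared run of 19 letters begins 226 bases before the start of *MYB107* and 83 bases before the start of *MYB9*. Searched on both strands, it occurred in 2 of 27443 upstream windows of the same length (0.0073%), which are these 2. Of the 45 pairs among the 10 genes, compared on the coding strand only, no other shared a run this long. The next was *MYB53* with *MYB92*, 15 letters that also occurred in 2 of the 27443 windows. Motifs described for R2R3 MYB factors, the AC elements, were searched on both strands. They were ACCTACC, found in 1.16% of all windows, the form ACCAACC, found in 2.69%, and the form ACCTAAC, found in 2.46%. At least 1 of them was in 6.12% of all windows and in 0 of the 10. These letter matches are descriptions and say nothing about binding.

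The primers used to genotype *myb107-2* are shown because they place the assay within *MYB107* (AT3G02940, chromosome 3, 661849 to 664011, 3 exons). Capitals are not used.
reverse: ccgatttcttagcaaaagtgtg
forward: gttatccgttcttcctgggag
The reverse primer matched 662008 to 662029 on the plus strand, across the start of exon 2 in its untranslated part. The forward primer matched 663059 to 663079 on the minus strand, in the coding part of exon 3. Each had 1 match in the genome.

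*MYB107*, the gene disrupted in the mutant, kept a low level in all *myb107-2* libraries. At 11 DAP it stood at 2.37, 2.82 and 3.84 CPM in *myb107-2*, against 40.5, 27.8 and 34.7 CPM in WT. At 11 DAP+Cold it stood at 5.71, 4.15 and 3.79 CPM in *myb107-2*, against 62.0, 52.3 and 43.5 CPM in WT. The genotypes did not overlap under either condition, and the residual 177 to 324 counts per mutant library were far above the limit of detection. Counts per gene do not show which part of the transcript these reads cover. *MYB107* was lower in *myb107-2* with a log2 fold change of -3.55 at 11 DAP (SE 0.22, adjusted p = 2.9e-07, edgeR) and -3.56 at 11 DAP+Cold (SE 0.22, adjusted p = 9.8e-08, edgeR).

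*MYB9*, which is intact in this mutant, was also lower there. At 11 DAP *MYB9* was listed with 7, 0 and 0 counts in *myb107-2*, against 45, 58 and 236 counts in WT, or at most 0.0734 CPM against 0.521, 0.774 and 3.17 CPM. At 11 DAP+Cold it stood at 3.02, 2.12 and 2.5 CPM in *myb107-2*, against 28.4, 18.8 and 50 CPM in WT. Every mutant library lay under every WT library of the same condition. The log2 fold change was -3.67 at 11 DAP+Cold (SE 0.41, adjusted p = 3.1e-05, edgeR), and this call held under every alternative run.

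At 11 DAP the log2 fold change of *MYB9* was -5.49 (SE 1.35), on 7 counts in the whole mutant group, and its adjusted p of 0.0499 (edgeR) lay at the threshold of 0.05. It was 0.0503 with RLE scaling, 0.0774 after a filter on low counts and 4.32e-06 with DESeq2. Leaving out replicate 1 of WT gave 0.0389, and leaving out any of the other 5 libraries gave 0.0702 to 0.215, with log2 fold changes of -9.67 to -4.32 over the 6 settings, the first without replicate 1 of *myb107-2*, the library that holds the 7 counts. The direction was the same in all of them.

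*MYB9* (AT5G16770, chromosome 5, 5514717 to 5517153, plus strand) overlaps AT5G16780 on the other strand. The library kit marks the strand, but the sources used here do not say that the counting used it. AT5G16780 had 31.4 to 47.1 CPM over the 18 libraries, with group means of 33.7 to 41.4 CPM, and so stayed within a narrow range where *MYB9* did not. No 50-base stretch of the exons of any of the 10 genes occurred elsewhere in the genome.

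**Figure D1:**
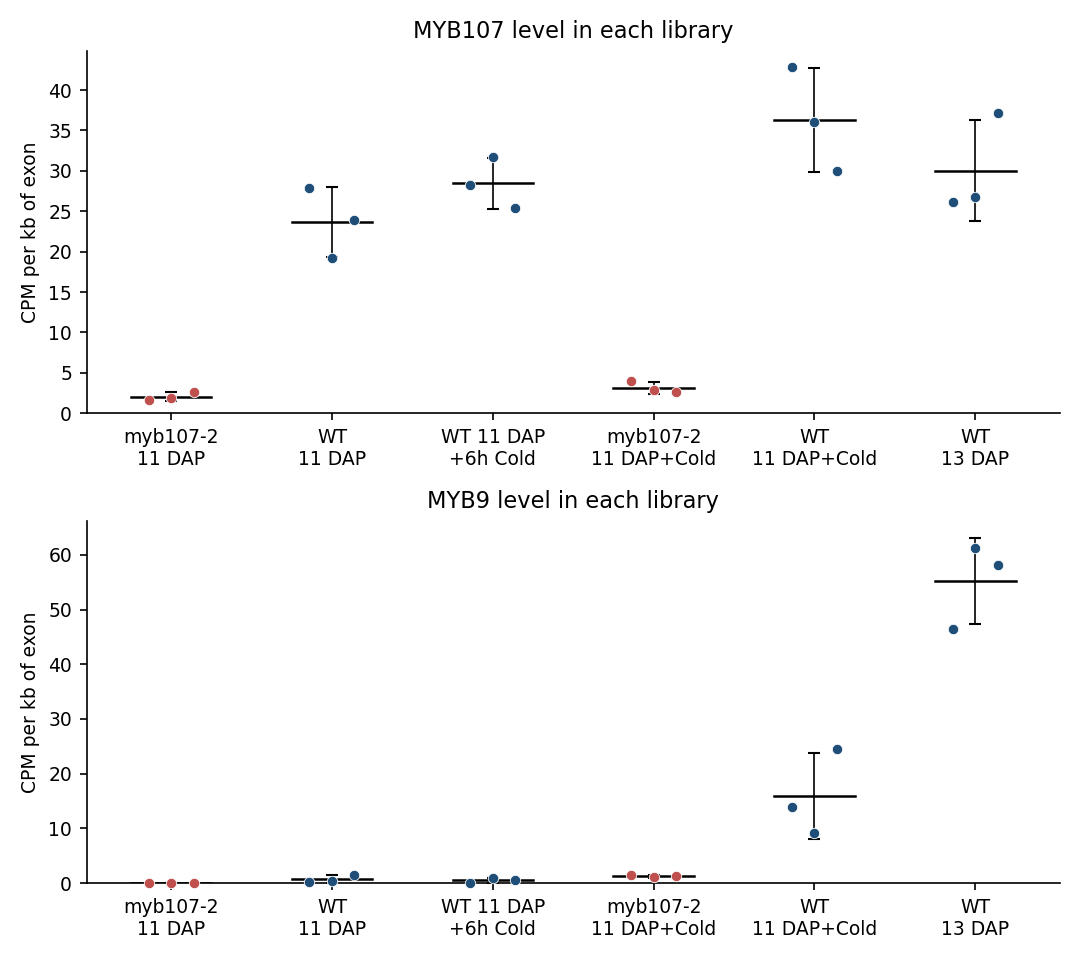
Level of *MYB107* (top) and *MYB9* (bottom) in each library, in CPM per kb of exon, for the 6 groups. Points are libraries (red *myb107-2*, blue WT), lines are means and bars are SD (n = 3); *MYB107* is low in both mutant groups, and *MYB9* is highest in WT 13 DAP at 55.3 ± 7.82 CPM per kb.

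No other member of the 10 genes was called between the genotypes. A call needed a change of 1 or more on the log2 scale, up or down, with a p that stayed at or under 0.05 after Benjamini-Hochberg adjustment over all genes tested. Of the 10, 8 had a count in the 12 libraries of this fit and were tested, *MYB93* and *MYB39* having none. At 11 DAP 2 of the 8 were called lower in *myb107-2* and 0 higher, against 0.717% of all genes tested called lower and 0.18% higher. With cold 2 of the 8 were called lower and 0 higher, against 1.14% of all genes lower and 0.706% higher. The same 2 genes, *MYB107* and *MYB9*, made up both counts, and *MYB107* is there by the design of the mutant. The median log2 fold change of the 8 was -0.75 at 11 DAP and -1.37 at 11 DAP+Cold, against 0 over all genes tested in both. Such medians include fitted values of genes near 0, which depend on the prior count.

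*MYB68* (AT5G65790, chromosome 5, 26322817 to 26324609, plus strand) and *MYB41* (AT4G28110, chromosome 4, 13968029 to 13969525, minus strand) had lower means in *myb107-2* without a call. At 11 DAP *MYB68* stood at 0.567, 0.796 and 0.630 CPM in *myb107-2*, against 1.17, 1.01 and 1.45 CPM in WT, which do not overlap (log2 fold change -0.91, SE 0.39, adjusted p = 0.32, edgeR). With cold, its range was 1.34 to 1.95 CPM in *myb107-2* and 1.89 to 2.10 CPM in WT (log2 fold change -0.30, SE 0.31, adjusted p = 0.79, edgeR). *MYB41* was listed with 0, 10 and 17 counts in *myb107-2* 11 DAP+Cold and with 40, 31 and 88 in WT 11 DAP+Cold (adjusted p = 0.26, edgeR), and with 0 in all 6 libraries at 11 DAP.

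Seed coat markers moved with genotype at 11 DAP as well. The summed level of the 7 markers was 1680 to 2540 CPM in *myb107-2* and 2550 to 2620 CPM in WT, and *MUM4* and *MUM2*, which act in mucilage, were called lower. In the cold the sums overlapped, at 1510 to 1730 CPM in *myb107-2* and 905 to 1750 CPM in WT, with 0 of the 7 called. There *TT10* had the higher mean in *myb107-2* (1330 CPM, against 1010 CPM in WT), and the other markers had the lower mean. The embryo sum was 18.7 to 21.4 CPM in *myb107-2* and 13.1 to 17.2 CPM in WT at 11 DAP, and 27.9 to 31.3 CPM in *myb107-2* and 20.3 to 27.5 CPM in WT with cold, with 0 markers called. In these bulk samples fewer cells of a type and less RNA per cell cannot be told apart, and the part of tissue composition in the *MYB9* difference was not tested.

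Genes of suberin synthesis and export formed a list of 16, of which 15 were tested. Without cold, *myb107-2* had 5 genes of this list called lower and 0 called higher, against 0.717% and 0.18% of all genes tested. The median log2 fold change was -0.74, the fitted value of *GPAT5*, which averaged 0.166 CPM in *myb107-2* and 0.244 CPM in WT. *FAR4*, *FAR5*, *GPAT7* and *CYP86A1* had no count in either group. *ASFT*, which adds ferulate to suberin, averaged 1.01 ± 0.377 CPM in *myb107-2* and 321 ± 49.3 CPM in WT (SD, n = 3 each). *CYP86B1*, a hydroxylase of very long chain fatty acids, averaged 1.01 ± 0.643 CPM in *myb107-2* and 38.7 ± 18.4 CPM in WT. The half-transporter *ABCG6* averaged 1.23 ± 0.473 CPM in *myb107-2* and 4.86 ± 1.77 CPM in WT, and AT2G48130 had 0 counts in *myb107-2* and 30.1 ± 11.2 CPM in WT.

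After 48 h of cold the list had 8 of 15 genes lower in *myb107-2* by the call and 0 higher, against 1.14% and 0.706% of all genes. The median log2 fold change was -1.78. *ASFT* averaged 36.8 ± 18.6 CPM in *myb107-2* and 609 ± 82.7 CPM in WT (log2 fold change -4.06). *CYP86B1* averaged 11.2 ± 5.44 CPM in *myb107-2* and 169 ± 65.9 CPM in WT (log2 fold change -3.93). *ABCG6* averaged 20.7 ± 3.59 CPM in *myb107-2* and 81.4 ± 29.8 CPM in WT (log2 fold change -1.98), and AT2G48130 averaged 7.73 ± 4.72 CPM in *myb107-2* and 135 ± 43.4 CPM in WT (log2 fold change -4.15).

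Other regulators and barrier genes were also compared between the genotypes. In the cold the peroxidase gene *PER64*, known from the Casparian strip, was called lower in *myb107-2* (log2 fold change -5.20, SE 0.50, adjusted p = 5.9e-06, edgeR). Of 13 MYB genes known for lignin and phenylpropanoid control, 10 were tested and 0 were called at 11 DAP. In the cold *MYB63*, an activator of lignin genes, and *MYB4*, a repressor of phenylpropanoid genes, were called lower (log2 fold changes of -3.87 and -1.12). The *MYB63* value (SE 0.76, adjusted p = 0.0063, edgeR) rests on a mutant group with 2 of 3 libraries at 0 and at most 0.558 CPM. Of 6 close relatives of the 10 genes, 2 were tested and 0 were called under either condition.

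The fall of *MYB107* and *MYB9* in the mutant was then compared between the temperatures. The difference of the log2 fold changes, 11 DAP+Cold minus 11 DAP, was -0.02 for *MYB107* (SE 0.32) and 1.82 for *MYB9* (SE 2.05), both with an adjusted p of 1 (edgeR). Of the 8 genes tested 0 passed an adjusted p of 0.05, against 0.28% of all genes tested, with 0 at an unadjusted p under 0.05 and 0 in DESeq2. The mutant level of *MYB9* at 11 DAP rests on 7 counts. With this SE a difference between the conditions was not detectable for *MYB9* at this depth. Its value ran from 0.65 without replicate 3 of WT 11 DAP to 6.00 without replicate 1 of *myb107-2* 11 DAP. In the suberin list 1 of 15 genes passed, *ASFT*, whose fall was smaller at 11 DAP+Cold (difference 4.19, SE 0.50).

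*MYB9* rose in the mutant after 48 h of cold all the same. It stood at 2.12 to 3.02 CPM in *myb107-2* 11 DAP+Cold and at 0 to 0.0734 CPM in *myb107-2* 11 DAP (log2 fold change 6.26, SE 1.21, adjusted p = 0.0014, edgeR). The fold rests on 7 counts in *myb107-2* 11 DAP. It ran from 5.77 to 10.45 with 1 library left out, the highest without replicate 1 of *myb107-2* 11 DAP, where that group is at 0 and the fitted value depends on the prior count, and the call held in each case. *MYB68* stood at 1.34 to 1.95 CPM in *myb107-2* 11 DAP+Cold and 0.567 to 0.796 CPM in *myb107-2* 11 DAP (log2 fold change 1.32, SE 0.38, adjusted p = 0.022, edgeR). These 2 of the 8 tested were called higher and 0 lower, against 4.14% of all genes higher and 3.83% lower. *MYB41* was at 0 in *myb107-2* 11 DAP and listed with 0, 10 and 17 counts after the cold (adjusted p = 0.31, edgeR, and 0.023 in DESeq2, which called it). Of the suberin list, 7 of 15 were called higher in *myb107-2* 11 DAP+Cold and 0 lower, *ASFT* and *ABCG6* with log2 fold changes of 5.11 and 4.06. Among tissue markers *TT2* (-1.85) and *BAN* (-1.25) of the seed coat were called lower. Sums did not overlap for endosperm (18500 to 23800 CPM in *myb107-2* 11 DAP+Cold and 10600 to 15900 CPM in *myb107-2* 11 DAP) or embryo (27.9 to 31.3 and 18.7 to 21.4 CPM in the same order), with 0 of either list called, and the part of the markers was not tested. The endosperm sum is nearly all *EPR1*, and *ZOU* overlapped, at 20.4 to 22.8 and 17.9 to 22.2 CPM in the same order. *MYB107* itself differed by 0.59 (SE 0.26, adjusted p = 0.14, edgeR), which is not called. The *MYB68* call was lost in a fit of all 18 libraries (adjusted p = 0.1), without replicate 1 of *myb107-2* 11 DAP (0.091) and without replicate 2 of *myb107-2* 11 DAP+Cold (0.097), and it fell just past the threshold without replicate 3 of *myb107-2* 11 DAP.

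In WT, *MYB107* and *MYB9* after 6 h of cold overlapped their levels at 11 DAP, with no call. *MYB107* stood at 41.0, 46.0 and 36.8 CPM in WT 11 DAP+6h Cold, against 40.5, 27.8 and 34.7 CPM in WT 11 DAP (log2 fold change 0.25, SE 0.19, adjusted p = 0.57, edgeR). *MYB9* stood at 0, 1.86 and 1.24 CPM in WT 11 DAP+6h Cold, against 0.521, 0.774 and 3.17 CPM in WT 11 DAP (log2 fold change -0.43, SE 0.74, adjusted p = 0.85, edgeR). The 0 is in the library with 610 such genes, and without that library the *MYB9* value was 0.07. Of the 8 genes tested 0 were called, against 1.37% of all genes, with 1 at an unadjusted p under 0.05 and 0 in DESeq2. That 1 was *MYB74*, listed at 0 in all 3 libraries at 6 h and with 25, 0 and 20 counts at 11 DAP (adjusted p = 0.28, edgeR). The suberin list also had 0 of 16 called at 6 h. *FAR4*, *FAR5*, *CYP86A1* and *FACT* of that list, and *MYB41* and *MYB93* of the 8, had no count in either group and could not be called. The seed coat sum was 1290 to 1930 CPM in WT 11 DAP+6h Cold and 2550 to 2620 CPM in WT 11 DAP, with *TT2* alone called lower. *TT10* averaged 1040 and 1860 CPM in the same order, and *BAN* 253 and 263 CPM. The means of the other markers were lower at 6 h as well.

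After 48 h of cold *MYB9* was higher in WT, in seeds that were also 48 h older than at 11 DAP. It stood at 28.4, 18.8 and 50 CPM in WT 11 DAP+Cold, against 0.521, 0.774 and 3.17 CPM in WT 11 DAP (log2 fold change 4.44, SE 0.66, adjusted p = 0.00083, edgeR). This was 1 of the 8 genes tested, against 2.8% of all genes called higher and 3.2% called lower. *MYB107* did not pass, with 62.0, 52.3 and 43.5 CPM in WT 11 DAP+Cold and 27.8 to 40.5 CPM in WT 11 DAP, which do not overlap (log2 fold change 0.60, SE 0.19, adjusted p = 0.059, edgeR). Its fold change is also under the minimum for a call.

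*MYB41* had no count at 11 DAP or after 6 h, and 40, 31 and 88 counts in WT 11 DAP+Cold, at least 25.4-fold above 3 counts per WT 11 DAP library. Its adjusted p was 0.064 in edgeR, with 0.00067 in DESeq2, and it was also called by the legacy method and with all 18 libraries. The median log2 fold change of the suberin list was 2.13, against 0 over all genes. In WT 11 DAP+Cold 9 of its 16 genes were called higher and 0 lower, against 2.8% and 3.2% of all genes. They included *GPAT5*, an acyltransferase of suberin, at 27.0 ± 19.5 CPM in WT 11 DAP+Cold and 0.244 ± 0.212 CPM in WT 11 DAP, and *ABCG6* at 81.4 ± 29.8 CPM and 4.86 ± 1.77 CPM in the same order. In the lignin list *MYB7*, *MYB15* and *MYB63* were called higher and 0 lower, with log2 fold changes of 1.00 to 2.46. Of the 7 seed coat markers *MUM4* and *TT2* were called lower in WT 11 DAP+Cold, and the sum of the 7 was 905 to 1750 CPM there and 2550 to 2620 CPM in WT 11 DAP. The embryo sum was 20.3 to 27.5 CPM in WT 11 DAP+Cold and 13.1 to 17.2 CPM in WT 11 DAP, with 0 of its markers called, and the part of the markers was not tested.

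**Figure D2:**
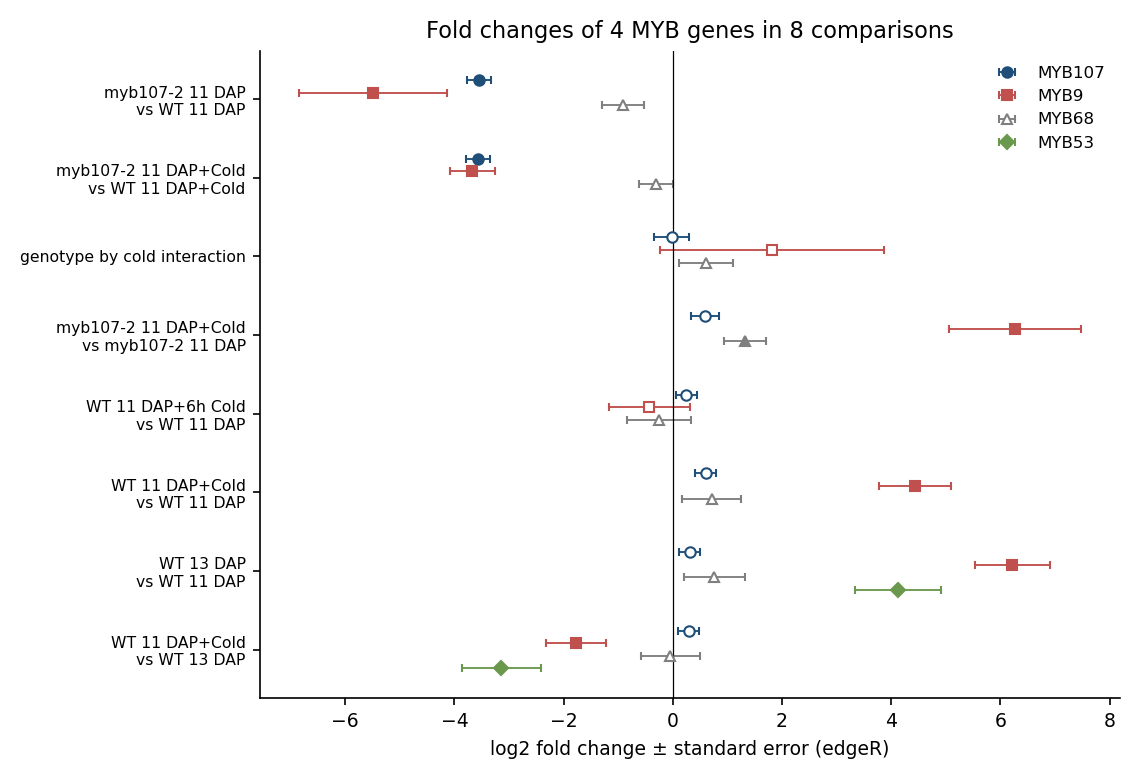
Log2 fold change with its standard error (x axis) of *MYB107*, *MYB9*, *MYB68* and *MYB53* in the 8 comparisons (y axis), from the edgeR fits. Filled symbols were called and open symbols were not; *MYB9* is filled in 6 comparisons, and *MYB107* in the 2 between genotypes at one temperature.

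By 13 DAP at 22 °C *MYB9* had the highest level measured for any of the 10 genes. It stood at 94.5, 125 and 119 CPM in WT 13 DAP, against 0.521, 0.774 and 3.17 CPM in WT 11 DAP (log2 fold change 6.22, SE 0.69, adjusted p = 2.5e-05, edgeR). *MYB53* (AT5G65230, chromosome 5, 26068112 to 26069652, plus strand) rose too, with 96, 88 and 168 counts in WT 13 DAP, against 0, 17 and 14 in WT 11 DAP (log2 fold change 4.12, SE 0.79, adjusted p = 0.0013, edgeR, and 0.13 by its legacy method). It overlaps AT5G65225 on the same strand, which had no count in any library. *MYB107* showed no call, at 37.9, 38.9 and 54.0 CPM in WT 13 DAP and 27.8 to 40.5 CPM in WT 11 DAP (log2 fold change 0.31, SE 0.19, adjusted p = 0.34, edgeR).

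*MYB41* and *MYB93* appeared at 13 DAP at low counts. *MYB41* was listed with 0, 105 and 55 counts in WT 13 DAP and 0 in all WT 11 DAP libraries, at least 23.9-fold above 3 counts per library (adjusted p = 0.036, edgeR). That call was lost without any one WT 11 DAP library, without replicate 2 of WT 13 DAP and without replicate 3 of WT 13 DAP (adjusted p 0.069 to 0.14). *MYB93* (AT1G34670, chromosome 1, 12709090 to 12710665, plus strand) was listed with 0, 30 and 36 counts in WT 13 DAP and 0 in the other 15 libraries (adjusted p = 0.064, edgeR). In both genes the 0 at 13 DAP is in the library with 47.0% ribosomal counts, and without the 3 libraries with most such zeros the adjusted p of *MYB93* was 0.038.

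Of the 8 genes tested, 3 were called higher at 13 DAP and 0 lower, against 5.22% of all genes called higher and 5.52% called lower. The median log2 fold change of the 8 was 2.44, against 0 over all genes. It falls between *MYB68* (0.76) and *MYB53* (4.12) and includes *MYB93*, which was tested only through its counts in WT 13 DAP. Fitted values of genes near 0 enter it too. The suberin list had 13 of 16 called higher and 0 lower, with a median of 4.60. *FAR4* and *FACT* are among the 13, and in the WT fit they had counts only in WT 13 DAP. They were thus tested only through the group where they are high, and their fitted values enter the median. *GPAT5* averaged 182 ± 23.9 CPM in WT 13 DAP and 0.244 ± 0.212 CPM in WT 11 DAP, and *CYP86B1* averaged 787 ± 196 CPM and 38.7 ± 18.4 CPM in the same order. In the lignin list *MYB63*, *MYB15*, *MYB85* and *MYB58* were called higher and 0 lower, and among close relatives *MYB38*, known from axillary meristems, was called higher (log2 fold change 1.72). *PER64* was called higher as well (log2 fold change 5.15, SE 0.70, adjusted p = 0.00013, edgeR). Seed coat markers summed to 791 to 1410 CPM in WT 13 DAP and 2550 to 2620 CPM in WT 11 DAP, with 4 of 7 called lower. The endosperm sum was 26500 to 30600 CPM in WT 13 DAP and 13300 to 18200 CPM in WT 11 DAP, without overlap. That sum is nearly all *EPR1*. *ZOU* went the other way, at 10.9 to 11.9 CPM in WT 13 DAP and 14.9 to 19.8 CPM in WT 11 DAP. Of the endosperm markers 0 were called, and the part of the markers was not tested.

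Seeds moved to cold for 48 h and seeds kept at 22 °C until 13 DAP had spent the same time since pollination, and *MYB9* was lower in the cold. It stood at 28.4, 18.8 and 50 CPM in WT 11 DAP+Cold, against 94.5, 125 and 119 CPM in WT 13 DAP (log2 fold change -1.78, SE 0.55, adjusted p = 0.046, edgeR). *MYB53* was lower as well, with 0, 38 and 16 counts in WT 11 DAP+Cold, against 96, 88 and 168 in WT 13 DAP (log2 fold change -3.14, SE 0.72, adjusted p = 0.0077, edgeR). These were 2 of the 8 tested, with 0 called higher, against 4.09% of all genes called lower and 3.83% higher. Neither passed in DESeq2 (adjusted p of 0.32 and 0.12) or in the legacy method (0.16 and 0.26). *MYB9* was also not called without replicate 1 or 2 of WT 11 DAP+Cold or replicate 2 or 3 of WT 13 DAP (0.1 to 0.18).

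*MYB107* and *MYB68* were not called between these groups, with log2 fold changes of 0.29 (SE 0.19, adjusted p = 0.38, edgeR) and -0.05 (SE 0.54, adjusted p = 1, edgeR). *MYB41* overlapped between them, at 0.972 ± 0.906 CPM in WT 11 DAP+Cold and 0.915 ± 0.957 CPM in WT 13 DAP. Of the suberin list, 11 of 16 were called lower in WT 11 DAP+Cold and 0 higher, against 4.09% and 3.83% of all genes. *FAR4* and *FACT*, which are among the 11, were tested only through their counts in WT 13 DAP and could only come out lower. The median log2 fold change of the list was -1.73, and *GPAT5* (-2.75) and *CYP86B1* (-2.20) were among the 11. *MYB63* and *MYB85* were called lower and *MYB7* and *MYB32* higher. Among tissue markers *MUM2* (1.43) and *BAN* (1.46) of the seed coat and *ZOU* (1.01) of the endosperm were called higher in WT 11 DAP+Cold. The endosperm sum, nearly all *EPR1*, was 13900 to 22000 CPM in WT 11 DAP+Cold and 26500 to 30600 CPM in WT 13 DAP. The embryo sum was 20.3 to 27.5 CPM and 12.8 to 14.3 CPM in the same order, without overlap and with 0 of its markers called. The part of the markers was not tested. The comparisons with WT 11 DAP, and those with WT 11 DAP+Cold, share libraries.

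**Figure D3:**
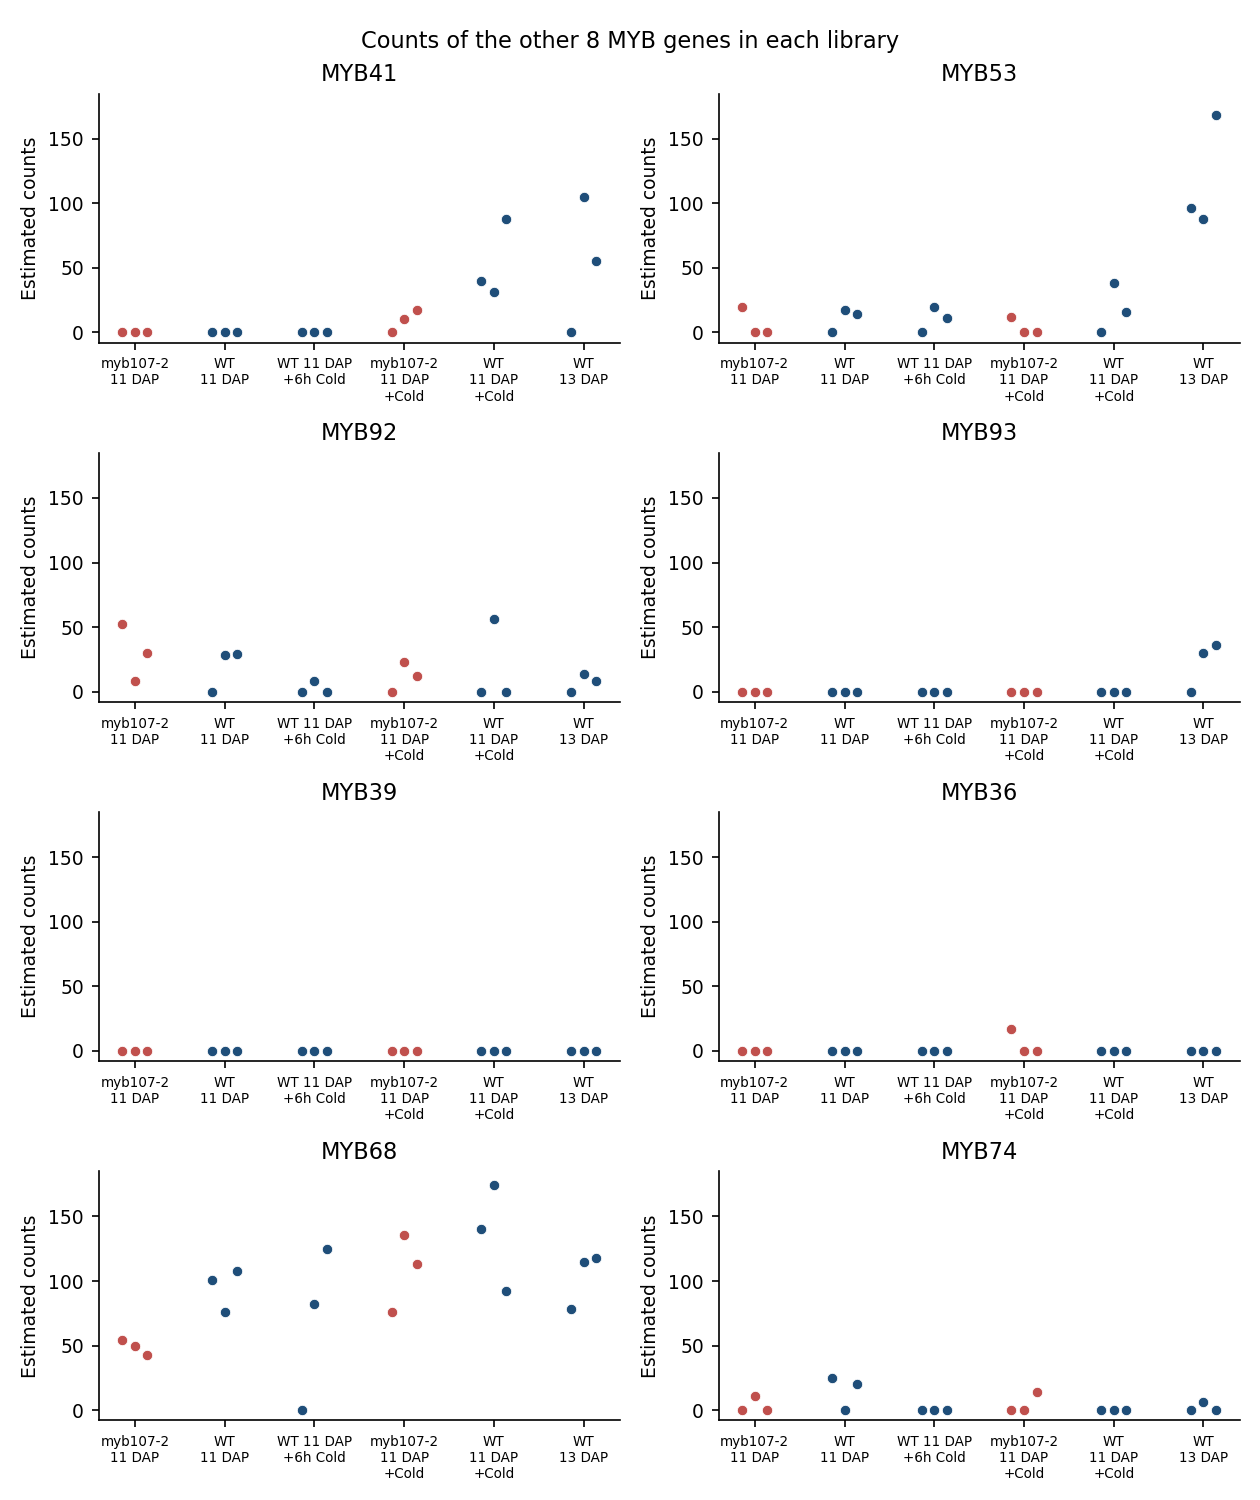
Estimated counts (y axis) of the 8 other MYB genes in each library of the 6 groups (x axis). Points are libraries, red for *myb107-2* and blue for WT; *MYB53*, *MYB41* and *MYB93* have their highest counts in WT 13 DAP, and *MYB39* is at 0 in all 18 libraries.

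Over the 6 groups the order of *MYB107* means was WT 11 DAP+Cold, WT 13 DAP, WT 11 DAP+6h Cold and WT 11 DAP, whose libraries overlapped between neighbours, and then *myb107-2* 11 DAP+Cold and *myb107-2* 11 DAP, which lay apart from WT and overlapped each other. For *MYB9* the order was WT 13 DAP, WT 11 DAP+Cold, *myb107-2* 11 DAP+Cold, WT 11 DAP, WT 11 DAP+6h Cold and *myb107-2* 11 DAP. WT 13 DAP did not overlap WT 11 DAP+Cold, nor did that group overlap *myb107-2* 11 DAP+Cold, and the neighbours further down overlapped. The mutant after 48 h of cold thus overlapped WT before the cold, at 2.12 to 3.02 CPM and 0.521 to 3.17 CPM. For *MYB68* every pair of neighbours overlapped, from 2.17 ± 0.418 CPM in WT 13 DAP to 0.664 ± 0.118 CPM in *myb107-2* 11 DAP. In *MYB9* and *MYB68* the overlap of WT 11 DAP+6h Cold with *myb107-2* 11 DAP rests on the 0 of replicate 1 at 6 h. In that library 610 genes were at 0 with at least 50 counts in both other replicates. The other libraries at 6 h lay above those of *myb107-2* 11 DAP.

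The balance between *MYB9* and *MYB107* differed between the WT groups. Per exon length, *MYB9* averaged 55.3 ± 7.82 CPM per kb and *MYB107* 30.1 ± 6.22 CPM per kb in WT 13 DAP. In WT 11 DAP *MYB9* averaged 0.731 ± 0.718 and *MYB107* 23.7 ± 4.39 CPM per kb (SD, n = 3 each). The ratio of *MYB9* to *MYB107* counts per exon length was 1.77, 2.28 and 1.56 in WT 13 DAP and at most 0.0651 in WT 11 DAP. It was 0.326, 0.256 and 0.818 in WT 11 DAP+Cold. In *myb107-2* 11 DAP+Cold it was 0.376, 0.363 and 0.469, with both genes lower there than in WT, and in *myb107-2* 11 DAP it was 0.0221, 0 and 0. The divisor in the mutant is the residual level of the disrupted gene, so these ratios cannot be read as a balance like that of WT.

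**Figure D4:**
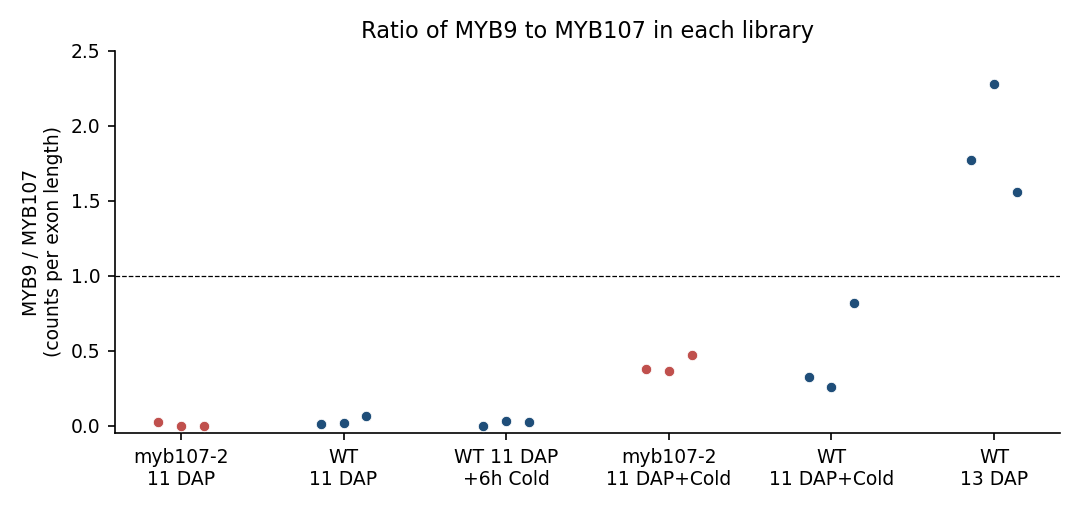
Ratio of *MYB9* to *MYB107* counts, each divided by exon length (y axis), in each library of the 6 groups (x axis; red *myb107-2*, blue WT). The dashed line marks a ratio of 1, which only the 3 WT 13 DAP libraries exceed.

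The remaining genes were near or under detection. *MYB39* (AT4G17785, chromosome 4, 9881599 to 9883432, minus strand) had no count in any of the 18 libraries. If each 0 is a true estimate, this allows at most 3 counts or 0.0315 to 0.101 CPM in each. *MYB36* (AT5G57620, chromosome 5, 23334767 to 23336632, plus strand) had 17 counts in replicate 1 of *myb107-2* 11 DAP+Cold and 0 in the other 17 libraries. *MYB74* (AT4G05100, chromosome 4, 2618372 to 2619947, plus strand) had counts in 5 of 18 libraries, at most 25. *MYB92* (AT5G10280, chromosome 5, 3232569 to 3234277, plus strand) had counts in 11 libraries, from 8 to 56, with group means of 0.0384 to 0.371 CPM, and groups next to each other in the order of means overlapped. The libraries of the groups with its highest and lowest mean, *myb107-2* 11 DAP (0.127 to 0.546 CPM) and WT 11 DAP+6h Cold (0 to 0.115 CPM), did not overlap. These 2 groups differ in both genotype and cold and were not compared by a test. A 0 of WT 11 DAP+6h Cold is in the library with 610 such genes. *MYB92* overlaps AT5G10278 on the same strand, which had at most 0.213 CPM. Of all 10 genes, *MYB107*, *MYB9* and *MYB68* alone reached a mean of 1 CPM over the 18 libraries.

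For these 3 genes the most similar patterns were sought among the genes with a mean of at least 1 CPM, by the root mean square difference of centred log2(CPM + 1). For *MYB9*, over 18 libraries and 17362 genes, they were *FAR1* (AT5G22500, 0.393), a fatty acyl reductase that makes primary alcohols of suberin, AT5G12420 (0.428) and AT3G51642 (0.476), where *MYB9* itself varied by 2.47 around its mean. *FAR1* averaged 105 ± 25.3 CPM in WT 13 DAP, 18.7 ± 6.47 CPM in WT 11 DAP+Cold and 1.71 ± 1.40 CPM in *myb107-2* 11 DAP+Cold, and had no count in *myb107-2* 11 DAP. Of the 3, *FAR1* is in the suberin list.

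For *MYB107*, over the 12 WT libraries, the nearest were *TRM11* (AT3G26410, 0.138), *UCNL* (AT3G20830, 0.164) and *ACR3* (AT1G76990, 0.182), where *MYB107* itself varied by 0.292. For *MYB68*, over 18 libraries, they were *UKL5* (AT3G27440, 0.221), AT1G55360 (0.232) and AT4G36210 (0.236), where it varied by 0.443. The differences were thus large beside the variation of *MYB107* and *MYB68* themselves, and these neighbours are weakly defined.

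**Figure D5:**
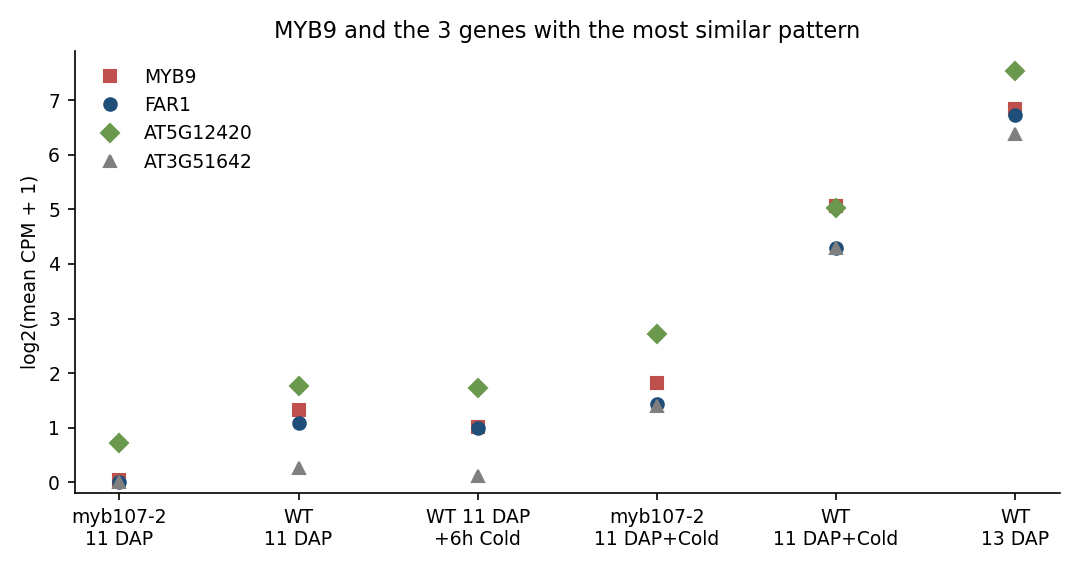
Log2 of mean CPM plus 1 (y axis) of *MYB9* and the 3 genes with the most similar pattern over 18 libraries, for the 6 groups (x axis). All 4 are lowest in *myb107-2* 11 DAP and highest in WT 13 DAP, and each is higher in WT 11 DAP+Cold than in *myb107-2* 11 DAP+Cold.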

How the data were processed

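The authors cleaned the reads with Trim Galore and Sickle, aligned them with HISAT2 and ran StringTie. They deposited estimated counts, 1 whole number per gene and library, not normalized. Versions, genome build and strand setting are not given in the sources used here. Gene positions come from TAIR10.1, which holds all 37883 nuclear identifiers. In 5 files 22 genes hold dates, and they were left out. Rows without a nuclear gene (median 0.851% of counts) stayed out of library sizes.

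Counts were scaled by TMM and tested with the quasi-likelihood test of edgeR 4.0.16 (R 4.3.3), without a low-count filter or a replicate block. One fit held both genotypes without and with 48 h of cold (26068 genes) and another the 4 WT groups (26245 genes). The SE was derived from each log2 fold change and its F statistic. Alternatives included DESeq2 1.42.0.

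Folds are given for genes with at least 1 CPM in a compared group, and as a bound against 3 counts per library where a group is at 0. Such a bound takes the listed zeros as true estimates. Named were all 10 genes, the 3 nearest patterns for each with a mean of at least 1 CPM, and at most 4 called genes with the smallest p per list and comparison. List genes without a count in a group were also named where this limits a number called. The 10 genes and the lists were chosen with earlier results of these data known. One item of the Casparian strip list, and the counts over that list, are not reported here.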

Additional observations from a re-analysis of the deposited data

How the results depend on the processing

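Pairing by replicate number was examined through the correlation of deviations from the group means. In no comparison did every pair exceed 0.1 (-0.32 to 0.28 over all pairs), although for WT 13 DAP and for WT 11 DAP+Cold against WT 11 DAP each library correlated best with its own number. With a replicate block the number of MYB genes called was 2 in 5 comparisons, 1 for WT 11 DAP+Cold against WT 11 DAP and 0 in the other 2, and only *MYB41* at 13 DAP lost its call (adjusted p = 0.069).

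Between *myb107-2* and WT at 11 DAP 1 gene in place of 2 was called with RLE or upper-quartile scaling, filterByExpr, without ribosomal RNA genes and with only the 6 libraries. For *myb107-2* 11 DAP+Cold against *myb107-2* 11 DAP it was 1 in place of 2 with the legacy method, all 18 libraries or only the 6, and 3 with DESeq2, which added *MYB41*. For WT 11 DAP+Cold against WT 11 DAP it was 2 in place of 1 with DESeq2, the legacy method and all 18 libraries, and against WT 13 DAP it was 0 in place of 2 with DESeq2 and the legacy method. Leaving out 1 library gave 1 to 2 calls in the first 2 of these comparisons and in WT 11 DAP+Cold against WT 13 DAP, and 2 to 3 for WT 13 DAP against WT 11 DAP.

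Signs turned only in values that were not called. For the difference of the log2 fold changes of *MYB107*, 11 DAP+Cold minus 11 DAP, the value was 0.00 without ribosomal RNA genes. It was -0.20 to 0.19 with 1 library left out. For WT 11 DAP+6h Cold against WT 11 DAP, leaving out 1 library gave -1.07 to 0.75 for *MYB9* and -0.89 to 0.25 for *MYB68*, and for *MYB68* in WT 11 DAP+Cold against WT 13 DAP it gave -0.18 to 0.05. Without the 3 libraries with most unmatched zeros, a setting chosen after seeing the data, these 3 values were 0.08, 0.25 and 0.05. Over all genes the number called moved by more than 1.5 times without the fold change minimum, for example to 425 in place of 234 between the genotypes at 11 DAP. With DESeq2 it moved to 378 in place of 73 for the difference of 11 DAP+Cold minus 11 DAP, and to 617 in place of 359 at 6 h. With 1 library left out these numbers were 115 to 292 between the genotypes at 11 DAP, lowest without replicate 2 of *myb107-2*. For 11 DAP+Cold minus 11 DAP they were 26 to 108 (without replicate 1 of *myb107-2* 11 DAP+Cold and replicate 3 of WT 11 DAP+Cold). At 6 h they were 171 to 390, lowest without replicate 3 of WT 11 DAP. The shares of all genes called move with these numbers. Depth limits the genes under 1 CPM, where 1 library at 0 moves a mean strongly.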
